A study of Drosophila melanogaster with 31 samples.

Results

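The genes described here are 10 genes of fly vision, the opsin genes ninaE, Rh3 and Rh4 and the phototransduction genes norpA, trp, trpl, Arr1, Arr2, inaD and ninaC, out of 13821 genes measured in male Drosophila melanogaster by RNA-seq. They were chosen by name, and all 10 were matched and tested in every comparison. In 31 libraries, flies kept without sensory stimuli (0 min) were set against flies given odor and light. The 23 brain libraries came from wild-type OreR flies of 3 ages. At 4 to 5 days (called 5 days below) there were 3 libraries each at 0, 10, 20, 30 and 45 min of stimulus, and at 10 and at 25 days there were 2 each at 0 and 30 min. Antennae (8 libraries) were sampled as their 2nd and 3rd segments at 4 to 5 days, with 2 libraries each of unstimulated and stimulated OreR and of unstimulated and stimulated Orco2. Orco2 is an Orco mutant whose label gives the strain as w*; TI{TI}Orco2, so it differs from OreR in w, the white gene of eye pigmentation, and in background as well as in Orco. For the stimulated antennae the label names 10, 20 and 30 min together. No retina is named as a dissected tissue, and how many flies made up each library is not stated. Replicates are called biological in the series' text.

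In fly photoreceptors, light turns rhodopsin into metarhodopsin, which acts through a Gq protein on the phospholipase C encoded by norpA, and the channels TRP and TRPL then open. Arrestins stop the signal, and the scaffold INAD and the myosin NINAC hold parts of the cascade in the rhabdomere. ninaE encodes Rh1, the rhodopsin of the outer photoreceptors R1 to R6. Rh3 and Rh4 are ultraviolet opsins of separate sets of R7 cells, and Rh2 is the opsin of the ocelli, the simple eyes on top of the head. The retina of the compound eye is not part of the brain or the antenna. In bulk RNA, fewer cells of a type and less RNA per cell cannot be told apart.

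Levels are given as TPM (transcripts per 1000000, a value per transcript length) as deposited, summed per gene. Fold changes are log2 values ± SE from edgeR's quasi-likelihood F-test on estimated counts, with p-values adjusted over all genes tested and a threshold of 0.05. Library totals ran from 18.5 to 76.7 M estimated counts (M, 1000000), and the smallest value of any of the 10 genes in a library was 34 estimated counts, for Rh4 in a brain.

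All 10 genes were read in every library of both tissues, and 9 of them stood higher in antennae than in brains by their medians. ninaE, the most abundant in antennae, had 465, 2353 and 4796 TPM as the lowest, median and highest values of the 8 antennal libraries and 51.2, 110 and 522 TPM in the 23 brain libraries. The order of the medians in antennae was ninaE, Arr2 (767 TPM), Arr1 (456), Rh4 (145), trpl (96.9), trp (77.0), ninaC (75.4), Rh3 (47.3), norpA (46.6) and inaD (38.4). In brains it ran norpA (220 TPM), Arr2 (114), ninaE (110), Arr1 (35.7), ninaC (15.1), Rh4 (14.7), trp (10.3), Rh3 (10.1), inaD (7.41) and trpl (5.41). Most neighbours in these orders had ranges that overlapped widely. norpA alone of the 10 was higher in brains, with 130 to 293 TPM against 34.3 to 51.8 TPM in antennae.

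**Figure D1:**
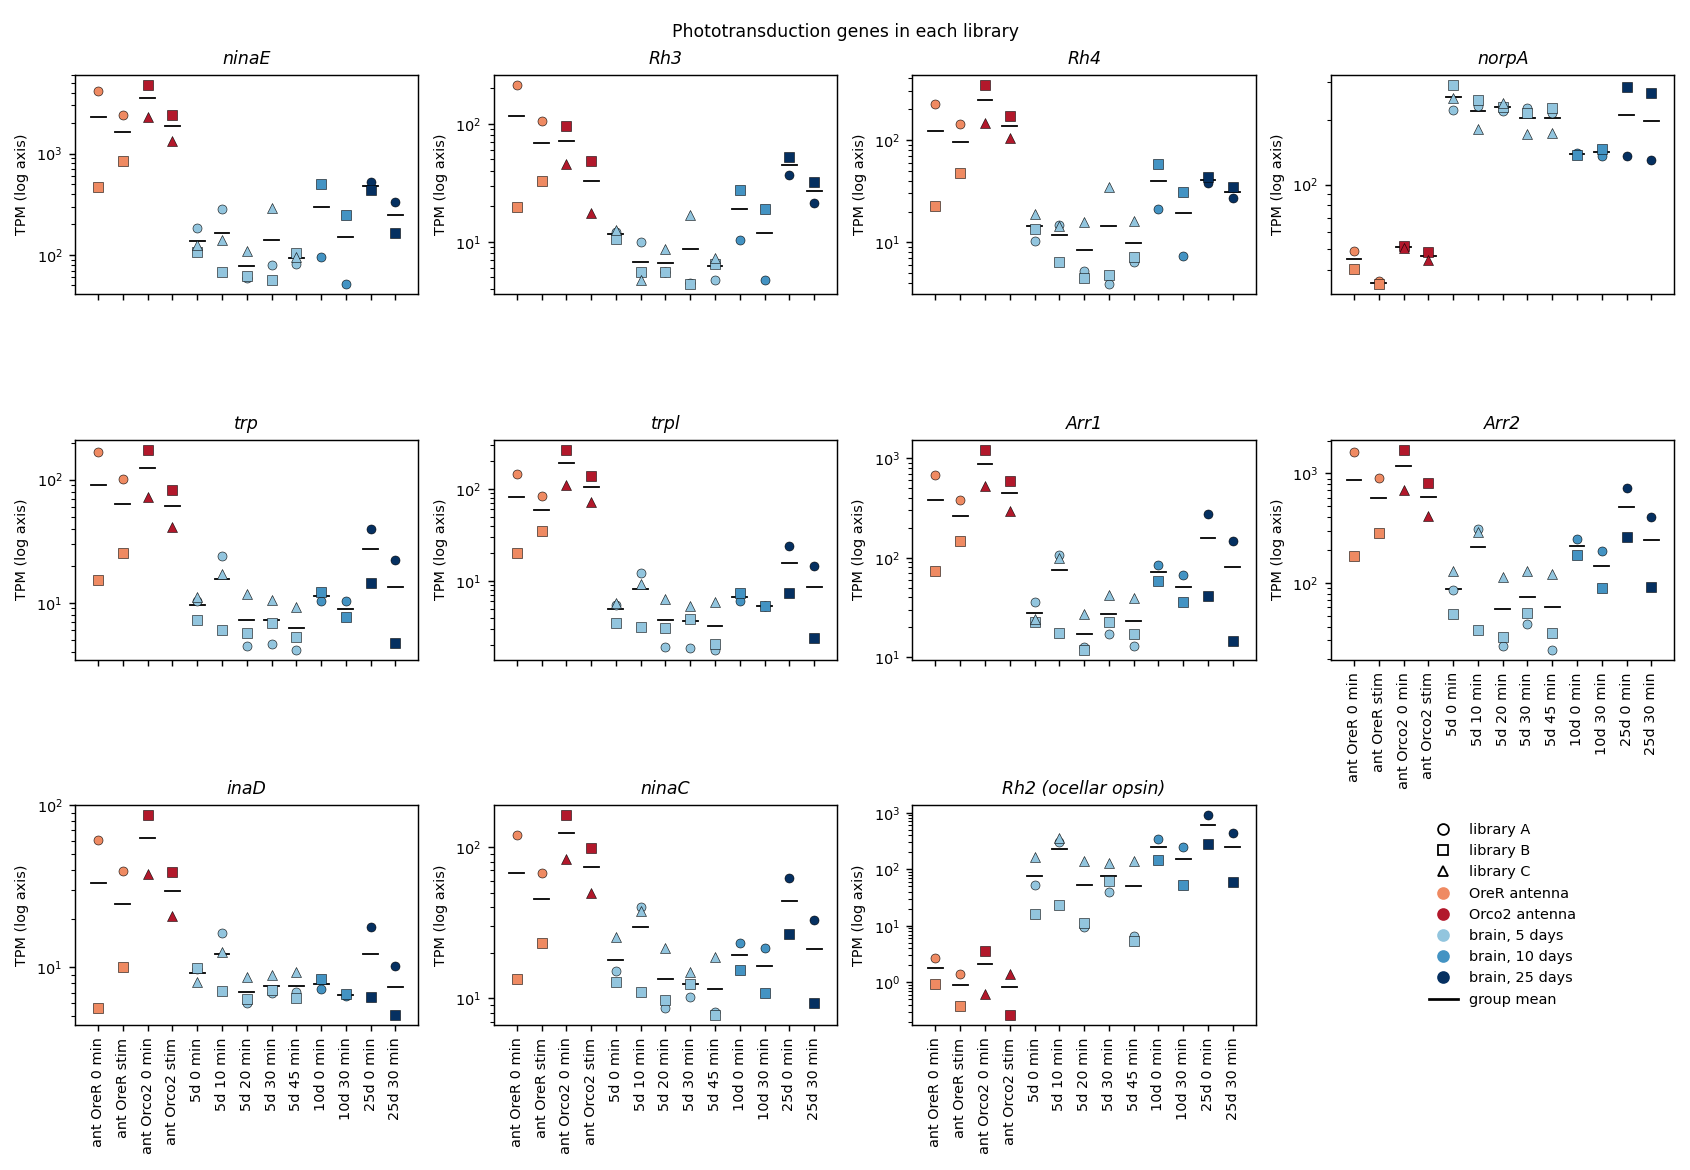
TPM (log axis) of the 10 genes and of Rh2 in each of the 31 libraries, by group. Symbols give the library letter, colours the tissue, genotype or age, and bars the group mean; norpA is the panel in which the brain libraries lie above the antennal ones.

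The labelled tissues were checked against marker lists. The 6 genes of antennal sensilla summed to 23340 to 27590 TPM in antennae and to 3.62 to 28.5 TPM in brains, and Orco, the odorant co-receptor, had 1360 to 1412 TPM in OreR and 5.77 to 6.52 TPM in Orco2 antennae. The 6 neuronal genes summed to 3105 to 5796 TPM in brains and 511 to 863 TPM in antennae. The 6 genes of eye support cells, which include the lens genes retinin and Cpr72Ec, summed to 129 to 427 TPM in antennae and 64.1 to 145 TPM in brains. In brains most of that sum was santa-maria, a carotenoid uptake gene (median 71.4 TPM), while Cpr72Ec and retinin had medians of 7.29 and 2.93 TPM there and of 58.7 and 8.80 TPM in antennae. The 8 other photoreceptor genes summed to 102 to 441 TPM in antennae and 159 to 287 TPM in brains. In brains most of that sum was rdgA and eys (medians 101 and 78.4 TPM), which had medians of 34.7 and 16.5 TPM in antennae. ninaG was also lower in antennae (2.39 against 4.59 TPM). Gbeta76C, inaC, chp, ninaA and inaF-B had medians of 8.3, 5.54, 3.73, 1.72 and 1.90 TPM in brains. Their medians in antennae were 74.1, 35.4, 38.2, 17.3 and 17 TPM. The lens gene Crys was at most 1.32 TPM in any library. ort, the histamine receptor of the lamina neurons behind the retina, lay at 0.0328 to 0.869 TPM in antennae and at 40.7 to 83.4 TPM in brains. Of the remaining lists, Johnston's organ (6 genes) had 125 to 200 TPM in antennae and 2.50 to 5.86 TPM in brains. Glia (6 genes) had 2524 to 3219 and 3771 to 7199 TPM, and muscle (6 genes) 228 to 555 and 62.1 to 1200 TPM. Fat body (5 genes) had 2167 to 4012 and 291 to 808 TPM. The lamina and photoreceptor synapse list (3 genes) had 3.34 to 10.5 and 53.5 to 101 TPM. Besides ort it held Hdc and HisCl1, with medians of 2.93 and 5.48 TPM in antennae and 7.28 and 8.86 TPM in brains. In antennae most of the fat body sum was 1 gene, to (median 2604 TPM there and 5.21 TPM in brains), while apolpp had medians of 42.4 and 212 TPM.

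In unstimulated young OreR flies, where antennae (2 libraries) could be set against brains (3 libraries), 9 of the 10 genes were higher in antennae and norpA was lower, all past the threshold. Among all 11772 genes tested, 30.1% were called higher and 28.0% lower. ninaE had 4156 and 465 TPM in the antennae and 185, 107 and 125 TPM in the brains. Both antennal libraries lay above the brains, but they differed from each other far more than the brains did. The fold change of ninaE was 4.79 ± 0.92 (adjusted p = 0.000129, edgeR). Rh3 had 12.1, 10.6 and 12.5 TPM in brains and 215 and 19.8 TPM in antennae, and rose by 4.07 ± 0.80. Rh4 had 10.4, 13.7 and 19.1 TPM in brains and 222 and 22.8 TPM in antennae, and rose by 3.84 ± 0.93. The groups of both ultraviolet opsins did not overlap, and the second antennal library again lay close to the brains.

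Of the channel genes, trp, the main light-activated channel, had 10.4, 7.29 and 11.1 TPM in brains and 167 and 15.4 TPM in antennae, and rose by 3.95 ± 0.84. trpl, its relative, had 5.47, 3.51 and 5.78 TPM in brains and 144 and 20.0 TPM in antennae, and rose by 4.75 ± 0.87. Neither channel gene overlapped between the tissues. Arr1, an arrestin gene, had 35.7, 22.5 and 24.4 TPM in brains and 682 and 73.4 TPM in antennae, and rose by 4.44 ± 0.98. Arr2, the other arrestin gene, had 86.4, 52.3 and 128 TPM in brains and 1572 and 176 TPM in antennae, and rose by 4.03 ± 1.02. The arrestin genes did not overlap either. ninaC, the myosin gene, had 15.1, 12.9 and 25.5 TPM in brains and 120 and 13.4 TPM in antennae, and rose by 2.57 ± 0.73. inaD, the scaffold gene, had 9.72, 9.93 and 8.18 TPM in brains and 61.2 and 5.61 TPM in antennae, and rose by 2.56 ± 0.66. For both, the second antennal library lay within or below the brain values. In all, the TPM of 7 of the 10 genes lay higher without overlap (24.7% of all genes did) and that of 1 lay lower (48.9%).

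norpA, the phospholipase gene, went the other way. It had 49.1 and 40.5 TPM in the antennae and 223, 293 and 254 TPM in the brains, a fold change of -1.90 ± 0.27 (adjusted p = 3.47e-06, edgeR). The direction of norpA was that of the neuronal markers, of which Syt1, a synaptic vesicle gene, changed by -2.97 ± 0.34 and elav, a neuronal RNA-binding protein gene, by -2.10 ± 0.36.

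The antennal library OreR 0 min A carried most of the difference for the 9 higher genes. Without it, 3 of the 10 genes passed, with ninaE (2.45) and trpl (2.72) higher and norpA (-2.01) lower, and inaD stood at -0.03 (adjusted p = 0.987). With limma on log2(TPM + 1), inaD (0.98) and ninaC (1.21) did not pass. Brain and antennal libraries also differed in fragment length, so tissue and library preparation cannot be told apart.

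Of 30 further genes of the pathway, 12 were called higher in antennae, 14 lower and 4 neither, against a median fold change of 0.05 over the list and 0.17 over all genes. The 9 with the largest rises, listed by role, were the Rh1 chaperone gene ninaA (5.00 ± 1.11), the eye-specific Gq subunit gene Gbeta76C (4.40 ± 1.02), the blue opsin gene Rh5 (3.36 ± 0.88), the eye protein kinase C gene inaC (3.48 ± 1.03), the TRP partner gene inaF-B (3.95 ± 1.04), the TRP and Rh1 transport genes Xport-A (3.58 ± 0.97) and Xport-B (3.51 ± 0.75), the retinoid-binding protein gene pinta (2.89 ± 0.22) and rtp, retinophilin, a partner of NINAC (4.47 ± 0.84). stops (2.41), a SOCS-box protein gene, laza (1.79), a lipid phosphatase gene, and santa-maria (0.68), a scavenger receptor gene of carotenoid uptake, also rose. The genes that were lower included Ggamma30A (-3.74 ± 0.37), the alpha subunit gene Galphaq (-1.53 ± 0.34), the phosphatidylinositol transfer gene rdgB (-1.97 ± 0.31), the diacylglycerol kinase gene rdgA (-0.71 ± 0.29), the opsin gene Rh7 (-2.25 ± 0.37), which is expressed in brain neurons, and calmodulin, Cam (-1.57 ± 0.27). The others called lower were inaE (-1.55), a diacylglycerol lipase gene, Calx (-1.54), a sodium/calcium exchanger gene, Cds (-1.51), of phosphoinositide recycling, didum (-1.43), a myosin V gene, rdgC (-1.41), the rhodopsin phosphatase gene, Gprk1 (-1.33), a receptor kinase gene, and ninaB (-1.17), the carotenoid oxygenase gene. Rh2, the ocellar opsin, was lower in antennae by 4.71 ± 1.82 on the log2 scale, from 52.4, 16.2 and 164 TPM to 2.67 and 0.940 TPM (adjusted p = 0.0322, edgeR). Without OreR 0 min A, 2 of the 30 were called higher and 12 lower.

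Within antennae, 8 of the other 9 genes followed ninaE from library to library. ninaE had 4156 TPM (A) and 465 TPM (B) in unstimulated OreR, 2421 (A) and 840 TPM (B) in stimulated OreR, 4796 (B) and 2297 TPM (C) in unstimulated Orco2, and 2410 (B) and 1329 TPM (C) in stimulated Orco2. Its highest value was thus 10.3-fold its lowest, and in every group 1 library lay well above the other. Arr2, in contrast, stayed at 30.5% to 37.8% of ninaE, a 1.24-fold range. trp stayed at 3.02% to 4.20%, ninaC at 2.77% to 4.07%, inaD at 1.19% to 1.82%, trpl at 3.42% to 5.75%, Arr1 at 15.7% to 25.6% and Rh4 at 4.91% to 7.77% of ninaE. norpA did not keep such a ratio, ranging from 1.08% to 8.71% of ninaE while its own level kept within a 1.51-fold range.

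Over the 8 antennal libraries the log2 TPM of inaD, trp and Arr2 followed that of ninaE with Pearson's r of 0.996, 0.994 and 0.994 and Spearman's rho of 1.0 each (adjusted exact permutation p = 7.44e-05 for r and 0.000149 for rho). r was 0.986 for Rh4, 0.985 for ninaC, 0.978 for Arr1 and 0.969 for trpl, with rho 0.929 each (adjusted exact permutation p = 0.000128 and 0.00287). For Rh3 r was 0.821 and rho 0.857 (adjusted exact permutation p = 0.0138 and 0.0121). For norpA r was 0.618 and rho 0.619 (adjusted exact permutation p = 0.103 and 0.115). Leaving out the 2 libraries whose ninaE lay farthest from the median gave 0.991 for inaD, 0.982 for trp, 0.991 for Arr2, 0.954 for Rh4, 0.948 for ninaC, 0.906 for Arr1, 0.871 for trpl, 0.855 for Rh3 and 0.395 for norpA. These 9 relations mix genotypes and stimulus states, and their permutations treat the 8 libraries as independent.

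The lens gene Cpr72Ec had 227 (A) and 20.3 TPM (B) in unstimulated OreR, 89.4 (A) and 16.7 TPM (B) in stimulated OreR, 116 (B) and 61.4 TPM (C) in unstimulated Orco2, and 56.0 (B) and 30.6 TPM (C) in stimulated Orco2. In each group its higher library was also the higher one for ninaE. retinin, another lens gene, had 69.9 and 6.21 TPM, 9.59 and 3.89 TPM, 123 and 36.0 TPM, and 8.01 and 7.64 TPM in the same libraries. It was high mainly in unstimulated libraries and did not follow ninaE closely, being at 9.59 and 8.01 TPM in 2 stimulated libraries with 2421 and 2410 TPM of ninaE. The sensilla markers, 27420 and 24160 TPM in unstimulated OreR A and B, differed much less there. The part of eye tissue in these differences was not tested.

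**Figure D2:**
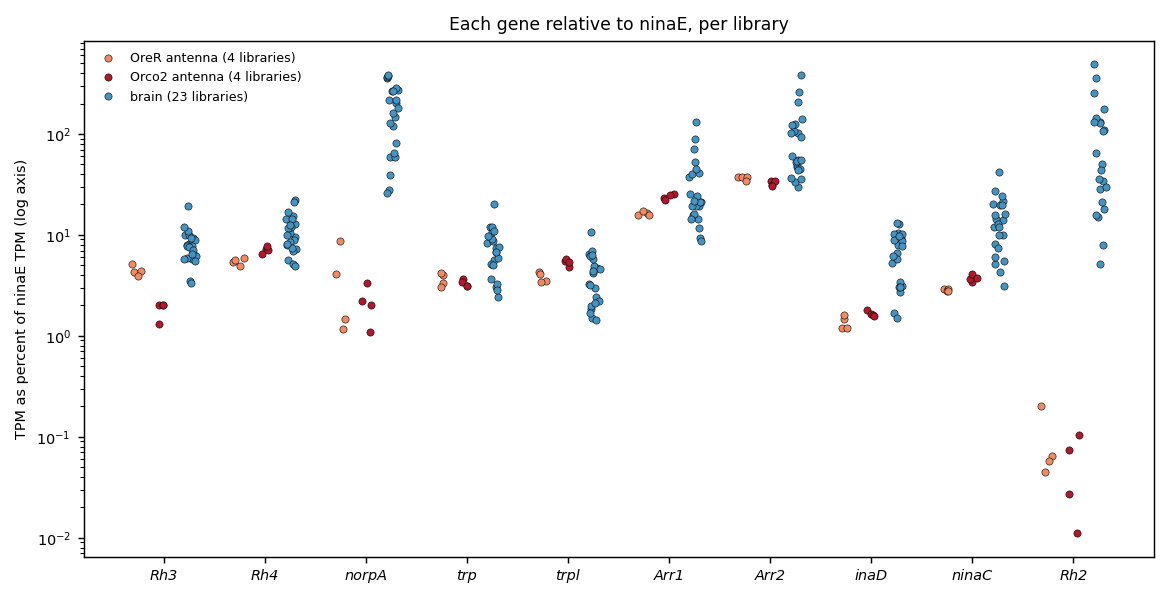
TPM of each gene as a percent of ninaE TPM in the same library (log axis), with 1 point per library for OreR antennae (4), Orco2 antennae (4) and brains (23). The antennal points of Arr2 lie between 30.5% and 37.8%, the brain points between 30.1% and 383%.

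Stimulation with odor and light changed none of the 10 genes past the threshold in antennae of either genotype. All 10 fold changes were negative in OreR (median -0.47, median of all genes 0.01) and in Orco2 (median -0.97, median of all genes 0.01), but the SE of 9 of them was about 1 or more. In OreR only norpA had an unadjusted p under 0.05. It went from 49.1 and 40.5 TPM to 35.7 and 34.3 TPM (-0.30 ± 0.10, adjusted p = 1, edgeR), and in Orco2 from 51.8 and 50.6 to 48.7 and 44.5 TPM (-0.14 ± 0.10, adjusted p = 1). norpA was the 1 gene of the 10 whose groups did not overlap, as were 17.7% (OreR) and 17.1% (Orco2) of all genes on the lower side. The share of all genes called was 0.0% in both, and in Orco2 none of the 10 had an unadjusted p under 0.05. The stimulus response differed between genotypes past the threshold for none of the 10 genes (edgeR interaction, adjusted p = 1 for each; 0.0% of all genes).

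Between genotypes, none of the 10 genes was called either, at 0 min (5.36% of all genes called) or after stimulation (7.15%). No gene of the 10 had an unadjusted p under 0.05 at 0 min, and 1 had after stimulation. Of all 11298 genes tested, 1843 and 2463 had. At 0 min the fold changes of Orco2 against OreR ran from -0.63 ± 1.17 for Rh3 to 1.31 ± 1.04 for Arr1. norpA was steadiest, at 0.24 ± 0.10 (adjusted p = 0.316) at 0 min and 0.39 ± 0.10 (adjusted p = 0.0703) after stimulation, with both Orco2 libraries above both OreR libraries each time. Of all genes, 18.4% and 26.6% lay higher without overlap. After stimulation norpA did pass with DESeq2, the other within-tissue comparison in which DESeq2 called any of the 10 genes being 25 against 5 days at 0 min. Of the pathway genes, pinta alone was called, higher in Orco2 by 2.13 ± 0.11 at 0 min and 1.92 ± 0.11 after stimulation (adjusted p = 0.000222 and 0.000345, edgeR). w, the white gene, was also higher in Orco2, by 2.85 ± 0.21 and 3.46 ± 0.22 (adjusted p = 0.000928 and 0.000435).

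Of 12 ratios between the eye genes, meant to take out the ninaE differences between libraries, 8 did not overlap between the genotypes. These ratios were chosen after the values had been seen, and 12 were compared, with 4 libraries of each genotype, both stimulus states together. The permutation test treats the 8 libraries as independent. Unstimulated and stimulated libraries of the same letter shared a fragment length, and their deviations correlated at 0.728 in OreR and 0.015 in Orco2. The permutation p-values of these ratios may thus be too small and are given as a description. Rh3 was at 5.17% and 4.25% of ninaE in unstimulated and 4.36% and 3.92% in stimulated OreR, and at 2.01% and 2.00% in unstimulated and 2.01% and 1.32% in stimulated Orco2. Every OreR value lay above every Orco2 value. The means were 4.43% ± 0.53 (SD, n = 4) and 1.84% ± 0.35 (SD, n = 4), a log2 difference of -1.28 (exact permutation test, two-sided, p = 0.0286, the smallest that 4 against 4 can give, adjusted p = 0.0429). Rh4 went the other way, with 5.45% ± 0.43 of ninaE in OreR and 7.14% ± 0.55 in Orco2 (log2 difference 0.39). Rh3 relative to Rh4 was 81.6% ± 12.4 in OreR and 26.04% ± 6.3 in Orco2 (log2 difference -1.67).

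Arr1 relative to ninaE was 16.3% ± 0.8 in OreR and 23.9% ± 1.6 in Orco2, and relative to Arr2 44.5% ± 4.3 and 73.5% ± 1.3. trpl was 3.83% ± 0.45 and 5.38% ± 0.39 of ninaE and 109% ± 29 and 162% ± 11 of trp. ninaC was 2.84% ± 0.07 and 3.71% ± 0.27 of ninaE. These ratios too did not overlap between genotypes, so 8 of the 12 had the smallest p that the exact permutation test can give (0.0286, adjusted 0.0429). The 12 ratios share genes, above all ninaE, so they are not separate tests. How many of all genes would not overlap relative to ninaE was not counted. The ratios to ninaE of Arr2, trp, inaD and norpA overlapped (exact permutation p = 0.0857, 0.371, 0.0857 and 0.571). The 8 differences kept their sign at 0 min alone, after stimulation alone, and among the 4 libraries of the longest fragment length and among the other 4. The other 4 are not 1 length class, since both Orco2 libraries there are of one length and both OreR libraries of another. For Rh3 relative to ninaE the log2 difference was -1.22 at 0 min and -1.35 after stimulation, -1.33 at the longest length and -1.24 among the other 4. trpl relative to trp differed in size between them, with 0.29 at the longest length and 0.94 among the other 4. The fat body list was also higher in Orco2 antennae (3159 to 4012 TPM) than in OreR antennae (2167 to 2392 TPM). Most of that sum was 1 gene, to (2022 to 3777 TPM over the antennal libraries). The part of the list in the ratios was not tested. Genotype, strain background and w cannot be told apart in these ratios.

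In brains, no odor and light comparison called any of the 10 genes, nor any of the 30 pathway genes. At 5 days, ninaE had 185, 107 and 125 TPM at 0 min, 286, 68.4 and 141 TPM at 10 min, 59.8, 61.9 and 110 TPM at 20 min, 78.9, 56.7 and 289 TPM at 30 min, and 81.7, 105 and 95.8 TPM at 45 min. At 45 min it lay below 0 min without overlap (4.51% of all genes did), and at the other times it overlapped. Rh3 had 12.1, 10.6 and 12.5 TPM at 0 min, 10.1, 5.53 and 4.74 TPM at 10 min, 5.56, 5.56 and 8.70 TPM at 20 min, 4.50, 4.36 and 17.1 TPM at 30 min, and 4.74, 6.52 and 7.36 TPM at 45 min. It lay below 0 min at 10, 20 and 45 min (2.91%, 2.13% and 4.51% of all genes did) and overlapped at 30 min, through library C. All 10 fold changes were negative at 20 min (median -0.50) and at 45 min (median -0.52), while at 10 min 7 were positive (median 0.55). None reached an unadjusted p under 0.05 at any of the 4 times (smallest adjusted p 0.879, edgeR), and the share of all genes called was 0.0% at each. A joint test over the 4 times gave an adjusted p of 1 for each of the 10 genes.

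Arr2 showed how far libraries of 1 group lay apart. It had 86.4, 52.3 and 128 TPM at 0 min and 309, 37.5 and 290 TPM at 10 min. Libraries A and C at 10 min were thus high and library B low. Rh2 had 310, 23.2 and 359 TPM in those libraries. Library A at 10 min also had the highest sum of the 6 muscle markers, 1200 TPM against 62.1 to 402 TPM in the other brain libraries.

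At 10 days, 9 of the 10 fold changes at 30 min against 0 min were negative (median -0.41), and at 25 days all 10 were (median -0.87), none with an unadjusted p under 0.05 (edgeR; 0.0% of all genes called). ninaE had 95.7 and 500 TPM at 0 min and 51.2 and 249 TPM at 30 min at 10 days, and 522 and 437 TPM at 0 min and 331 and 166 TPM at 30 min at 25 days. The 25-day values lay lower at 30 min without overlap for ninaE, Rh3 and Rh4 (6.01% of all genes), and the 10-day values did for trp, trpl and inaD (10.7%). The test did not pair libraries by letter, although at 25 days the deviations of same-lettered libraries correlated at 0.884. Arr2 went from 734 to 401.5 TPM in A and from 264 to 91.5 TPM in B. norpA went from 136 to 130 TPM in A and from 285 to 267.5 TPM in B. None of the 10 genes rose within either letter at 25 days, but how many of all genes did likewise was not counted. With the letter as a block none was called. The response at 30 min did not differ from that at 5 days past the threshold for any of the 10 genes at either age (edgeR interaction, smallest adjusted p 1 and 1).

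With age, 9 of the 10 genes had higher estimates in unstimulated brains at 25 than at 5 days, and none passed the threshold, against 1.65% of all genes. The median fold change was 1.66 (all genes 0.04). An unadjusted p under 0.05 was found for 7 of the 10, and for 1653 of all 10431 genes tested (edgeR). The TPM of 8 lay higher without overlap, as for 8.46% of all genes. Rh3 came nearest. It had 12.1, 10.6 and 12.5 TPM at 5 days and 36.9 and 52.6 TPM at 25 days (2.02 ± 0.57, adjusted p = 0.083, edgeR). ninaE had 185, 107 and 125 TPM against 522 and 437 TPM (1.88 ± 0.74, adjusted p = 0.226). Both 25-day libraries stood well above the 5-day ones for these opsins.

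Most of the other genes stood higher in unstimulated 25-day library A than in B, but Rh4 and norpA did not. Arr1 had 35.7, 22.5 and 24.4 TPM at 5 days and 278 (A) and 40.9 TPM (B) at 25 days (2.62 ± 0.87, adjusted p = 0.147). Arr2 had 86.4, 52.3 and 128 TPM against 734 (A) and 264 TPM (B) (2.57 ± 0.92, adjusted p = 0.177). In both genes library A carried most of the difference. trp was 40.0 and 14.3 TPM at 25 days (1.57 ± 0.63), trpl 23.8 and 7.36 TPM (1.73 ± 0.73) and ninaC 62.0 and 26.5 TPM (1.29 ± 0.59). Rh4 was 38.4 and 43.5 TPM (1.59 ± 0.81), without a gap between A and B. inaD was 17.7 and 6.53 TPM (0.47 ± 0.38) and overlapped, as did norpA with 136 and 285 TPM (-0.25 ± 0.28). Rh2 had 918 and 285 TPM at 25 days (3.03 ± 1.51).

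The fat body list (5 genes) also summed higher in the 25-day libraries, 524 to 808 TPM against 291 to 526 TPM at 5 days. The glial list (6 genes) summed lower, 3771 to 5009 against 5910 to 7199 TPM. Its genes Gs2, nrv2, Eaat1 and moody had their lowest brain values in 25-day libraries at 30 min. alrm, in contrast, had its highest, 1000 TPM, in unstimulated 25-day B, and repo its lowest, 49.0 TPM, in unstimulated 5-day C. Different fat body genes were high in different 25-day libraries. apolpp had its highest brain value, 732 TPM, in unstimulated B, and to had its highest, 406 TPM, in 30 min A. The eye support list summed to 90.2 to 145 and 74.4 to 135 TPM. Their part in the age differences was not tested. Library B at 25 days differed from A in neuronal sums as well, with 5750 against 3202 TPM at 0 min. The count of calls depended on the model. DESeq2 called 3 of the 10 genes higher, and the fit without library A called 1.

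At 10 against 5 days without stimulus, 8 of the 10 estimates were positive (median 0.64) and none was called in the fit without a replicate term (0.115% of all genes were). Rh4 (20.99 and 58.3 TPM), trpl (6.06 and 7.43), Arr1 (84.4 and 58.4) and Arr2 (251 and 182) lay above the 5-day libraries, as 18.7% of all genes did. norpA lay below, with 140 and 138 TPM against 223, 293 and 254 TPM (-0.84 ± 0.29, unadjusted p = 0.00947, adjusted p = 0.169, edgeR), as 20.4% of all genes did. The neuronal list stood at 3275 and 3495 TPM in those 10-day libraries and at 5197 to 5796 TPM in the 5-day ones. Its part in the norpA values was not tested. At 30 min the medians were 0.38 at 10 days (0.671% of all genes called) and 1.05 at 25 days (0.489%), and none of the 10 genes was called in that fit. With fragment length as a batch term 1 was called for 25 against 5 days at 30 min, and 1 without 5-day library C. Rh3 at 30 min was 4.50, 4.36 and 17.1 TPM at 5 days, 4.78 and 19.0 TPM at 10 days and 21.5 and 32.2 TPM at 25 days (25 against 5 days 1.69 ± 0.57, unadjusted p = 0.00865, adjusted p = 0.16, edgeR). It was the 1 gene of the 10 with an unadjusted p under 0.05 at 25 against 5 days, as 1856 of all 10431 genes had. Between 25 and 10 days all 10 estimates were positive at both times (medians 1.15 and 0.71), none with an unadjusted p under 0.05 (edgeR; 0.0% of all genes called). None of the 30 pathway genes was called in any age comparison.

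**Figure D3:**
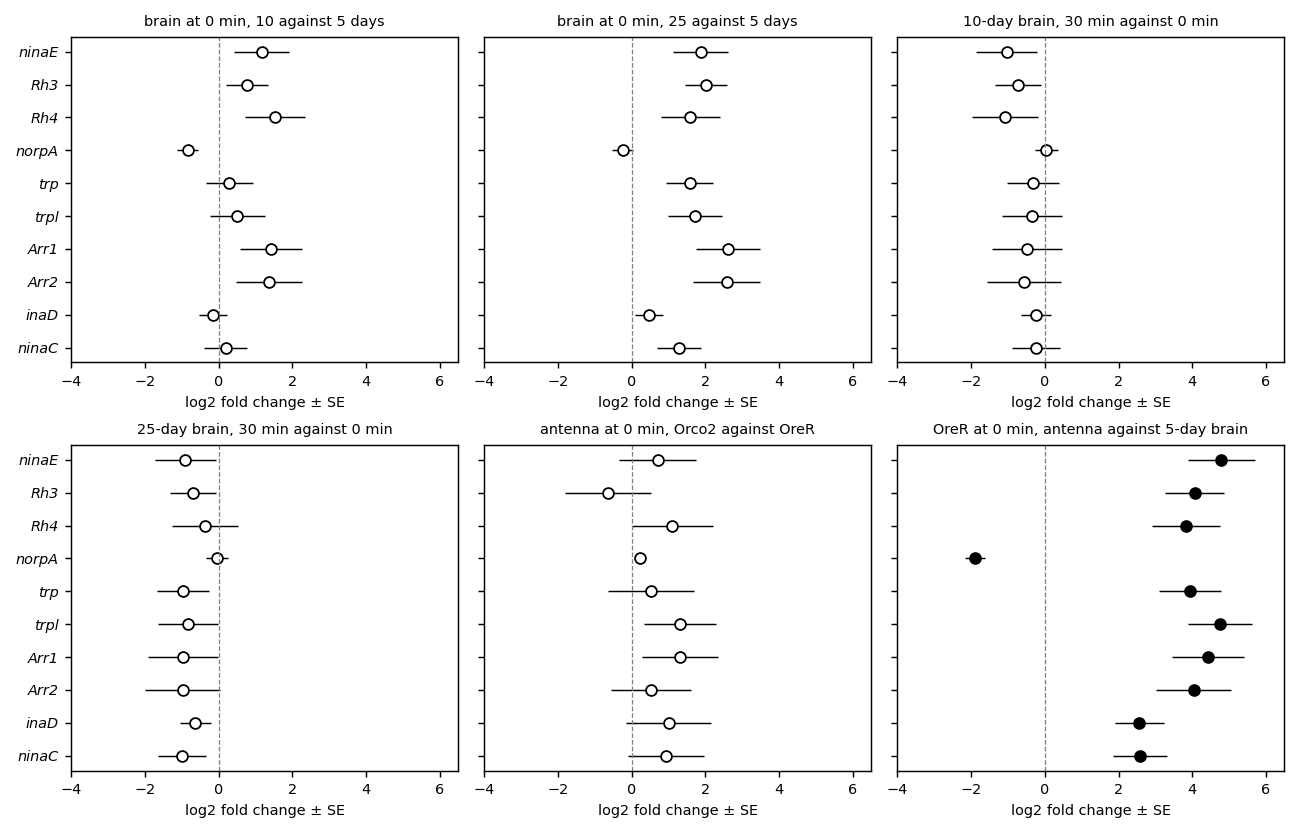
log2 fold change ± SE (edgeR) of the 10 genes in 6 comparisons. Filled points passed the adjusted p threshold of 0.05, which they did only in antenna against 5-day brain, with norpA the 1 gene below 0; none passed in the other 5 panels.

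Across the 23 brain libraries the genes moved in 3 patterns. The retinal opsins went together. Taking the log2 TPM of ninaE, Pearson's r was 0.870 with Rh3 and 0.861 with Rh4, and Spearman's rho 0.837 and 0.844 (adjusted permutation p = 2.71e-05 for each, from 100000 permutations over 19 relations). Leaving out the 2 libraries farthest from the ninaE median gave 0.833 and 0.822. Within the 13 libraries of 1 fragment length class r was 0.865 and 0.904, and within 6 libraries of another 0.846 and 0.854.

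Both arrestin genes, both channel genes and ninaC went with Rh2 more than with ninaE. Against Rh2, chosen as a reference after the values had been seen, r was 0.960 for Arr2, 0.905 for ninaC, 0.884 for trpl, 0.872 for Arr1 and 0.867 for trp, and rho 0.974, 0.943, 0.908, 0.898 and 0.889 (adjusted permutation p = 2.71e-05 for each). Without the 2 libraries farthest from the Rh2 median, r was 0.965, 0.893, 0.859, 0.882 and 0.859, and within the 13 libraries of 1 fragment length class 0.930, 0.877, 0.877, 0.760 and 0.860. Against ninaE, r was 0.688 for Arr2, 0.530 for ninaC, 0.687 for trpl, 0.621 for Arr1 and 0.690 for trp. rho was 0.639, 0.515, 0.657, 0.594 and 0.712 (adjusted permutation p = 0.00264, 0.0159, 0.00182, 0.00538 and 0.000689). Within the 6 libraries of the other class r was above 0.9 against both opsins for these 5 genes, so there the opsins did not separate them. Rh2 and ninaE themselves were related with r = 0.564 and rho = 0.521 (adjusted permutation p = 0.00677 and 0.0159). Against Rh2, r was 0.483 for Rh3 and 0.629 for Rh4, and rho 0.391 and 0.616 (adjusted permutation p = 0.071 and 0.00406 for rho). inaD lay between, with 0.50 against ninaE and 0.578 against Rh2, and norpA had -0.289 and -0.505. The difference between a gene's correlations with the 2 opsins was not tested. The 19 relations mix ages and stimulus times, and their permutations treat the 23 libraries as independent. With Rh2 also chosen from these values, its p-values are given as a description.

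The 6 brain libraries with ninaE between 81.7 and 110 TPM, a range chosen after the values had been seen, give single values. Unstimulated 10-day library A had 95.7 TPM of ninaE, 339 of Rh2 and 251 of Arr2. The 5-day 20 min library C had 110 TPM of ninaE, 140 of Rh2 and 114 of Arr2, and the 5-day 45 min library C had 95.8, 139 and 120 TPM. These 3 libraries were high in both Rh2 and Arr2. The unstimulated 5-day library B had 107 TPM of ninaE, 16.2 of Rh2 and 52.3 of Arr2. The 5-day 45 min libraries A and B had 81.7 and 105 TPM of ninaE, 6.54 and 5.48 of Rh2, and 24.6 and 35.2 of Arr2. Arr2 thus ran from 24.6 to 251 TPM among these 6 libraries, and its order was that of Rh2 except within the 2 pairs of libraries with nearly equal Rh2.

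In a linear fit of TPM over the 23 libraries, Rh2 alone accounted for 98.1% of the variance of Arr2, ninaE alone for 49.1% and both for 99.2%, and without 25-day 0 min library A, the highest in both, the values were 95.5%, 31.5% and 98.2%. For Rh4 the shares were 17.6%, 75.6% and 78.0%, and for Rh3 22.1%, 67.9% and 68.2%. ninaC had 90.5% from Rh2 and 33.0% from ninaE, Arr1 93.3% and 39.9%, trpl 89.6% and 51.2%, and trp 89.2% and 49.6%. Without the same library these shares were 82.6% and 12.6% for ninaC, 82.8% and 18.7% for Arr1, 75.4% and 34.5% for trpl, and 74.5% and 32.2% for trp. The share of Rh2 then fell to 11% for Rh4 and 7.8% for Rh3, with ninaE at 77.2% and 62.0%. inaD had 54.8% from Rh2 and 25.1% from ninaE over all libraries but 26.4% and 7.3% without that library. Rh2 itself ran from 5.48 to 918 TPM in brains, a 168-fold range, and from 0.267 to 3.55 TPM in antennae. In antennae, where Rh2 was that low, Arr2 had 176 to 1650 TPM.

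**Figure D4:**
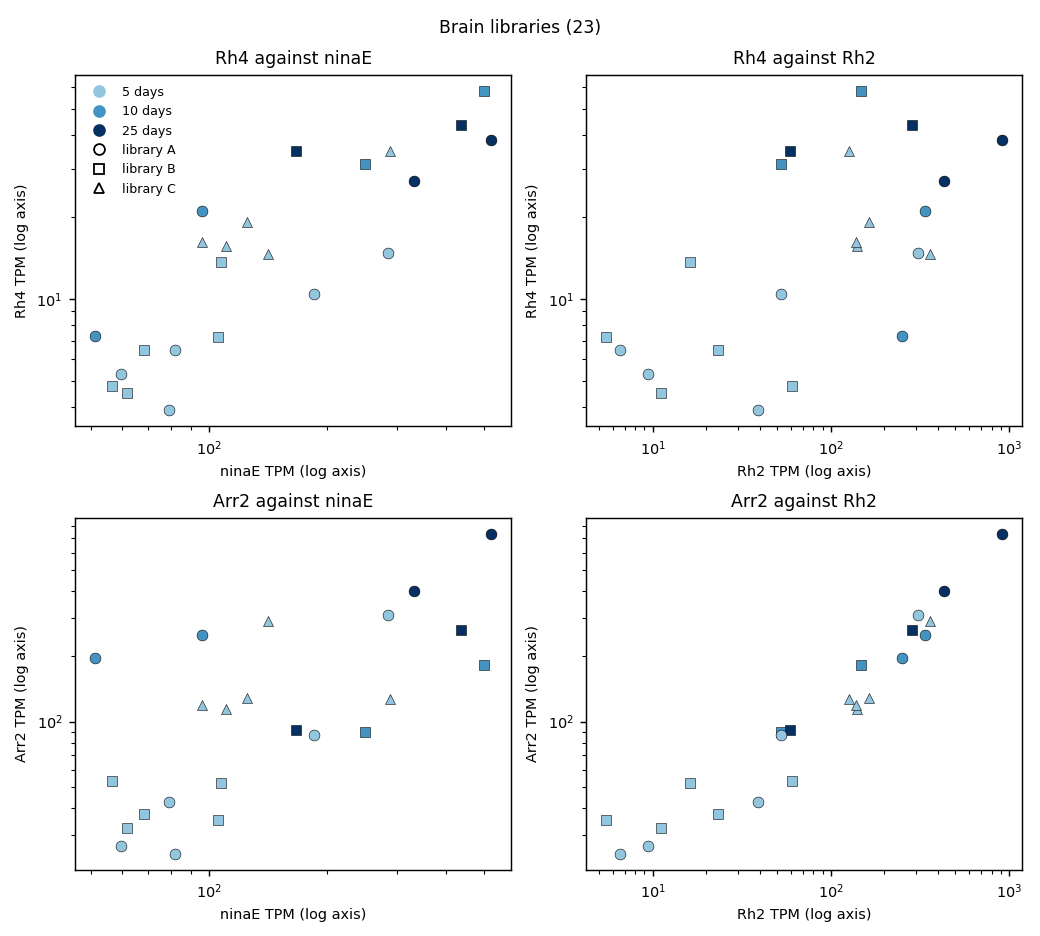
TPM (log axes) of Rh4 and Arr2 against ninaE and against Rh2 in the 23 brain libraries, coloured by age, with symbols for the library letter. Arr2 lies along Rh2 (r = 0.960 on the log2 scale) and Rh4 along ninaE (r = 0.861).

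The 8 genes outside the 10 whose log2 CPM was most like that of ninaE over the 23 brain libraries, among 8204 genes, were Pdh (Pearson's r = 0.833), a photoreceptor dehydrogenase gene, Sp7 (0.825), Timp (0.822), Ect3 (0.819), vir-1 (0.813), Dtg (0.813), CG4716 (0.788) and tsl (0.787). Rh3 and Rh4 ranked above all of them. For Arr2 the nearest genes were Gbeta76C (0.966), Arr1 (0.962), Rh2 (0.960) and inaC (0.951), with trpl, trp, ninaC and rtp next (0.934 to 0.911). For norpA they were orb (0.993), sky (0.992), Syt1 (0.990), Tob (0.989), Frq1 (0.987), Ace (0.986), nAChRalpha3 (0.986) and B4 (0.985). The lists for Arr2 and norpA were made after the values had been seen. Of the 10 genes, norpA alone had negative values with ninaE (-0.345), Arr2 (-0.541) and Rh2 (-0.514). It was the third pattern, with a 2.25-fold range in brains against 3.46-fold for inaD and 7.97-fold to 29.8-fold for the other 8.

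The estimated transcript shares of norpA also differed between tissues by their medians. Brain and antennal libraries had no fragment length in common, so tissue and fragment length cannot be told apart here. The 6 annotated transcripts of norpA share a coding length of 1095 codons and differ in exons and untranslated parts. kallisto's split between them thus rests on few distinguishing reads. norpA-RD made up 41.8% to 89.4% of norpA TPM in brains (median 78.3%) and 0.0654% to 45.0% in antennae (median 17.0%). norpA-RC took a median of 7.68% in brains and 37.8% in antennae. In antennae the share of norpA-RD moved with the fragment length of the libraries: it was 28.1%, 28.9%, 32.3% and 45.0% in the 4 libraries of one class and 0.0654%, 2.94%, 3.14% and 5.92% in the other 4. The part of fragment length in the split was not tested.

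For ninaC the forms encode different proteins, the long p174 and the short p132. The long form (ninaC-RB, 1501 codons) made up 27.9% to 82.1% of ninaC TPM in brains and 11.5% to 27.7% in antennae. The ranges nearly met, at 27.9% in unstimulated 25-day brain B and 27.7% in unstimulated Orco2 antenna C. These shares are kallisto's split, and tissue and fragment length cannot be told apart. The 3 short-form transcripts (1135 codons) took the rest. In brains the long form kept within 5.24 to 17.5 TPM, a 3.34-fold range, while the short forms ran from 1.39 to 44.5 TPM, a 32.0-fold range. The brain libraries with the largest share of the long form were 5-day 45 min B (82.1%) and A (72.3%), which also had the lowest Rh2 of all brain libraries, 5.48 and 6.54 TPM. The smallest shares were in the unstimulated 25-day libraries A (28.2%) and B (27.9%), with Rh2 at 918 and 285 TPM. In antennae both forms moved, the long form from 1.87 to 23.1 TPM and the short forms from 11.6 to 145 TPM.

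**Figure D5:**
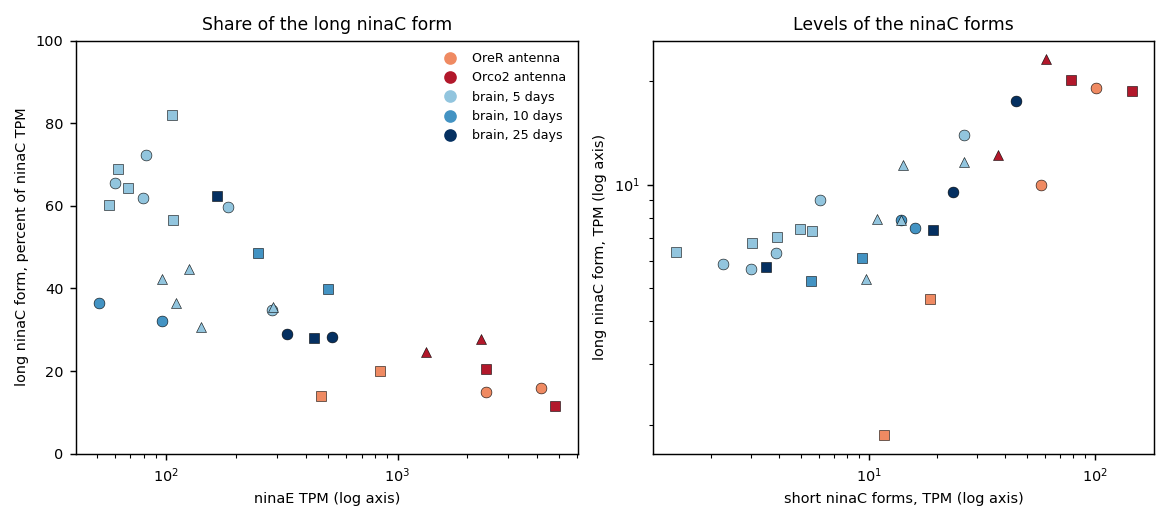
Left, the long ninaC form as a percent of ninaC TPM against ninaE TPM (log axis); right, TPM of the long against the short forms (log axes), with 1 point per library, coloured by group. Brain points lie between 27.9% and 82.1% and antennal points between 11.5% and 27.7%.

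The 10 genes lie apart in the genome (BDGP6, Ensembl annotation). ninaE (FBgn0002940) is on 3R at 19886255 to 19888206 and Rh3 (FBgn0003249) on 3R at 20081060 to 20082450, both on the minus strand and with 1 transcript. Rh4 (FBgn0003250) is on 3L at 16852527 to 16862517, minus strand, and sina and sinah lie on the other strand within its span without sharing exons. norpA (FBgn0262738) is on X at 4322626 to 4365408, plus strand, and trp (FBgn0003861) on 3R at 29914521 to 29920289, minus strand. trpl (FBgn0005614) is on 2R at 9753697 to 9765518, plus strand. Arr1 (FBgn0000120) is on 2L at 18078269 to 18081307, plus strand, and Arr2 (FBgn0000121) on 3L at 8647261 to 8648936, minus strand. ninaC (FBgn0002938) is on 2L at 7377702 to 7384344, plus strand. inaD (FBgn0001263), on 2R at 22855688 to 22858794, minus strand, shares exon positions with RpL23, a ribosomal protein gene on the other strand. Whether counting used strand is not stated in the sources used here, so the inaD values are uncertain, most of all in brains, where they were low (5.11 to 17.7 TPM).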

How the data were processed

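RNA-seq libraries were made with an Illumina TruSeq kit, per the labels' protocols. For each library the authors deposited estimated counts and TPM values of 30490 transcripts, per the file headers. The submitters' processing notes name the builds dm6 and GRCm38 and the tools kallisto 0.43.1, edgeR 3.18.1 and CASAVA 1.7, with no role or order. The strand setting and transcript release were not given in the sources used here.

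Transcript IDs were looked up in Ensembl's BDGP6.54 annotation. Of the 30490, 30255 matched, in 13821 genes, and the rest held 0.396% to 0.514% of a library's estimated counts. Gene sums of estimated counts were rounded to whole numbers. Library totals ran from 18.5 to 76.7 M (median 31.1 M; M, 1000000 counts). Deposited TPM was summed per gene for levels and ratios.

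Genes were tested with edgeR 4.0.16 in R 4.3.3 (quasi-likelihood F-test, TMM, filterByExpr, robust fit, 1 coefficient per group). The 23 brain libraries shared 1 fit (10431 genes), the 8 antennal libraries another (11298 genes) and all 31 shared the fit used for antenna against brain (11772 genes). Benjamini-Hochberg adjustment ran over all genes tested. The SE is the one the F-statistic implies. On simulated counts, 44% of genes changed 2-fold and 78% of those changed 4-fold were recovered for 5-day brain at 30 against 0 min. The shares were 25% and 78% for 25 against 5 days at 0 min, and 30% and 86% for antenna against brain. The changed genes were drawn at random, so these shares are not the recovery of the 10 genes. The log2 SE of ninaE and Arr2 for 5-day brain at 30 against 0 min was 0.67 and 0.82. Alternatives were DESeq2 1.42.0, RLE factors, no filter, only the compared libraries, fragment length as a batch term, the replicate letter as a block, each library left out, and limma 3.58.1 on log2(TPM + 1). Fragment length was read as transcript length minus effective length of long transcripts, 325, 335 or 369 bases in brains and 298, 301 or 354 in antennae. The 5-day brain libraries A and B had 369 at 0, 10 and 20 min and 335 at 30 and 45 min. Library C had 335 at every time. At 10 and 25 days A had 325 and B 335. Fragment length is thus partly confounded with stimulus time at 5 days and with age.

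Among the comparisons made with 3 libraries a group, replicate letters paired only the 5-day brains at 0 and 10 min. The deviations of all 3 pairs correlated above 0.1 there (0.522, 0.447 and 0.496), and the block changed no call. The same held for 10 against 20, 10 against 45 and 20 against 45 min (0.108 to 0.645), which were not compared. At 25 days the deviations of same-lettered 0 and 30 min libraries correlated at 0.884. Those of unstimulated and stimulated OreR antennae correlated at 0.728. With 2 libraries a group the 2 deviations mirror each other, so each is 1 value. Same-lettered libraries also shared a fragment length in both. The reported tests there were not paired, and the block changed no call. In the other comparisons the letters were not shown to pair libraries.

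The text names the 10 genes in every comparison, the pathway genes that pass and the 8 genes most like ninaE. The genes, the pathway list (30 genes), the 9 marker lists and the tests were chosen with earlier results of these data known. Rh6 was not analysed here. Brains of HDAC6 mutants, which the series' text also describes, were not analysed here.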

Additional observations from a re-analysis of the deposited data

Results flagged for a closer look

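In the ratios of antennal libraries, 24 groups of 4 libraries were examined for a single library set apart, and 2 had one. Rh3 relative to ninaE was 1.32% in stimulated Orco2 library C, below the other 3 Orco2 libraries at 2.00% to 2.01%. Arr2 relative to ninaE was 34.2% in stimulated OreR library B, below the other 3 OreR libraries at 37.5% to 37.8%. Chance gives about 1 in 20 such groups.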

How the results depend on the processing

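The reported count of called genes was 0 in 20 of 21 comparisons, of 2 or 3 libraries a group, so that 258 of 270 recomputed counts lying within 1.5-fold of it says little about stability. Of 110 fold changes in antenna against brain 101 kept their direction and their call; directions in the other comparisons were not recomputed gene by gene. For 25 against 5 days at 0 min, 0 genes were called as reported, 3 with DESeq2, 6 with the replicate block, and 0 to 1 when each library was left out (1 without 25-day library A). For 25 against 5 days at 30 min, 1 was called with fragment length as a batch term, 3 with the replicate block and 0 to 1 with a library left out (1 without 5-day library C). For 25 against 10 days at 0 min the range with a library left out was 0 to 1 (1 without 25-day library A), and for 10 against 5 days at 0 min the replicate block called 3. Letters were not shown to pair libraries in any of these age comparisons. For Orco2 against OreR after stimulation, DESeq2, fragment length as a batch term and the replicate block each called 1, higher in Orco2. For antenna against brain, 3 to 10 were called with a library left out, and without OreR 0 min A the fold change of inaD was -0.026, so its sign turned (range over libraries left out -0.026 to 3.425). The replicate block changed no other call. At 10 days, where the deviations of the same-lettered pairs correlated at -0.195, a crossed pairing, chosen after seeing the data, called 0 of the 10 genes and 0 genes in all. The causes were not tested. Fragment length as a batch term could not be fitted for antenna against brain, since tissue and class cannot be told apart. Whether depth limited the calls was not tested.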
